A study of Mus musculus with 16 samples.

Results

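The response of WT muscle macrophages to cardiotoxin injury was taken from the 8 WT libraries of a set of 16. F4/80-positive macrophages from CTX-injected muscle (WT CTX, libraries 1, 2, 3 and 4) were set against those from normal muscle (WT normal, libraries 2, 3, 5 and 6). All genes that passed a count filter were members, which kept 13649 of the 24421 gene symbols in the table. CTX is the labels' abbreviation for the injected agent, taken here as cardiotoxin, a venom toxin that kills muscle fibres. The remaining 8 libraries came from GLUD1 KO mice, again 4 from CTX-injected and 4 from normal muscle, and they shared in the estimate of each gene's spread. GLUD1 is the mitochondrial enzyme that turns glutamate into alpha-ketoglutarate, and the study set its KO macrophages against WT ones with and without damage. RNA was taken from the sorted cells with a micro-scale column kit and amplified with the SMART-Seq V4 kit, which copies whole transcripts. The CTX libraries are described as taken when muscle damage was at its peak, and the hour or day, the strain, the age and the muscle are not given in the sources used here. Nothing in the labels says that each library came from its own mouse, so the spread behind each p-value is that of these libraries and may be partly technical.

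Skeletal muscle keeps a resident population of macrophages that clears small debris and samples the tissue. After toxin injury the fibres die, neutrophils and monocytes enter from the blood, and the monocytes become macrophages that engulf fibre remnants, take up heme iron, make cytokines and later help muscle stem cells to rebuild fibres. An F4/80 sort collects all of these macrophages together, so a level is an average over resident and recruited cells, and fewer cells of a type cannot be told apart from less RNA per cell.

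Levels are given as CPM, a gene's counts per 1000000 counts of the library, after TMM scaling, which evens out libraries dominated by a few genes, and means as mean ± SD over 4 libraries. A log2 fold change is CTX over normal, with its standard error (SE), from edgeR's quasi-likelihood test. A gene is said to have risen or fallen where edgeR's p, adjusted by Benjamini-Hochberg over all 13649 genes, was under 0.05. Libraries held 19352958 to 21903563 counts in normal and 19842999 to 23097420 counts in CTX muscle. Fewer genes were detected in the CTX libraries (14434 to 14886) than in the normal ones (16176 to 16846), and the 100 most abundant genes took a larger share of the reads. That share was 32.2% ± 0.78 in CTX and 26.3% ± 0.866 in normal libraries (exact two-sided permutation test, p = 0.0286, the smallest that 4 against 4 allows). The nuclear RNA Malat1 was at 748 to 968 CPM in CTX libraries and at 1380, 2570, 2520 and 6960 CPM in normal libraries 2, 3, 5 and 6, and the part of this difference in RNA composition in the results was not tested. Adgre1, which encodes the F4/80 antigen of the sort, ranged over 523 to 698 CPM in the normal libraries and over 617 to 1250 CPM in the CTX ones. With library totals as the only scaling, every log2 change moved by about -0.62, so directions of small changes depend on TMM, and 1944 genes rose and 8349 fell under that scaling. The first principal component of the WT libraries held 81.1% of the variance and separated the groups.

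Some libraries stood apart within their group. WT CTX library 3 held 73 genes at least 2-fold above the mean of the other CTX libraries among 5040 expressed genes, against 0, 0 and 13 genes in libraries 1, 2 and 4. Among 4771 expressed genes of the normal libraries, number 2 held 141 at least 2-fold below the mean of the others and 18 above, number 3 held 11 below and 75 above, and numbers 5 and 6 held 8 and 15 below and 8 and 18 above. Saa3, an acute-phase serum amyloid, was at 141, 156, 5085 and 329.6 CPM in CTX libraries 1 to 4, and Irg1, the itaconate-making enzyme, at 559, 639.9, 3648 and 975 CPM. Without that library the log2 change of Irg1 was 4.21 in place of 5.22, and that of Hp, which encodes haptoglobin, was 0.98 in place of 1.70 and no longer passed. WT normal library 2 had the highest levels of granule genes of developing neutrophils and eosinophils, with Ngp at 1362, 426, 256 and 80.7 CPM and Prg2 at 626, 242, 38.4 and 1.81 CPM in normal libraries 2, 3, 5 and 6. Both genes fell with injury, and without normal library 2 their log2 changes were -3.86 and -3.39 in place of -4.92 and -4.67. The groups of Prg2 overlapped, since it read 3.06, 18.8, 10.8 and 3.13 CPM in CTX libraries 1 to 4. Ngp also had 1 high CTX library, number 2, without which its change was -7.10, and that of Prg2 was -5.34. In WT normal library 3 the genes that rose most with injury were already higher. Over the 95 genes with a log2 rise of at least 3 and a CTX mean of at least 32 CPM, its median level was 9.64% of the CTX mean, against 4.44%, 5.12% and 6.44% in the other normal libraries. WT normal libraries 5 and 6 held Xist, the female X-inactivation RNA, at 104 and 215 CPM of their totals, whereas Xist had no read in the other 6 WT libraries. WT CTX libraries 1 and 2 were the closest pair, with a chi-square per degree of freedom of 6.03 over their gene counts, against 31.8 to 94.9 in the other pairs within a group.

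**Figure D1:**
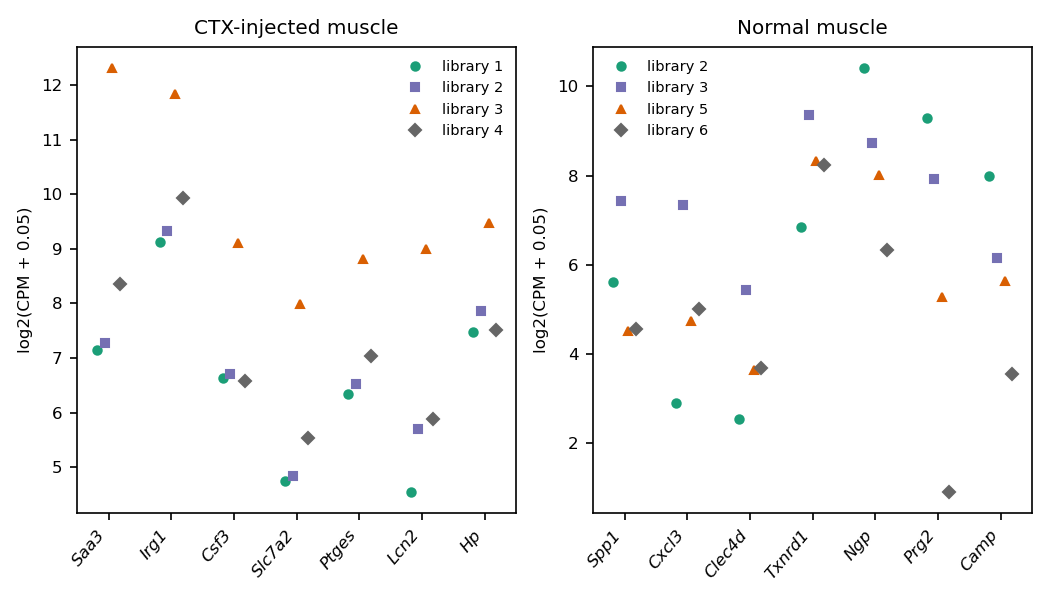
Levels of 7 genes per panel in each library, on a log2 axis of CPM plus 0.05, for CTX-injected (left) and normal (right) WT muscle. Library 3 lies above the other CTX libraries for Saa3, Irg1, Csf3, Slc7a2, Ptges, Lcn2 and Hp, and among normal libraries number 3 is highest for Spp1, Cxcl3, Clec4d and Txnrd1 and number 2 for Ngp, Prg2 and Camp.

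Markers of other cells moved with injury too. Over all genes tested 33.3% rose and 39.4% fell. Of the dendritic cell markers 7 of 8 fell, and the remaining marker, Xcr1, rose from 7.12 to 35.9 CPM. The summed level of the 8 went from 424 to 606 CPM in normal to 77.0 to 99.3 CPM in CTX libraries. Neutrophil markers summed to 436 to 5030 CPM before and 341 to 1170 CPM after injury, and 7 of 12 fell. Endothelial markers summed to 167 to 216 CPM against 92.9 to 119 CPM, and muscle fibre markers to 21.3 to 52.4 CPM against 5.44 to 7.87 CPM. Of the tissue-resident macrophage markers 9 of 10 fell and 0 rose in the edgeR test, with a median log2 change of -2.54 and a summed level of 6320 to 11000 CPM against 3540 to 4430 CPM. Monocyte markers summed to 1090 to 1990 CPM against 4060 to 5450 CPM, with 5 of 11 up and 2 down. Fibroblast markers fell in 8 of 11 cases and rose in 1 (577 to 1040 CPM against 722 to 776 CPM), and mural cell markers fell in 8 of 8 (46.6 to 66.6 CPM against 18.0 to 23.7 CPM). Of the T and NK cell markers 9 of 10 fell, with the NK receptor gene Ncr1 at 0 reads in every CTX library. The tenth, Il7r, rose from 27.2 to 237 CPM. Pax7, the transcription factor of satellite cells, had 6 reads in the normal libraries together and 0 in the CTX libraries. A set of 15 genes that respond to tissue dissociation was higher in normal muscle, at 24400 to 29300 CPM against 6600 to 8010 CPM, with 14 of 15 lower after injury and only Ier3 higher. The part of these cells and of the dissociation genes in the results that follow was not tested.

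Injury changed most of the transcriptome. Of 13649 genes 4551 rose (33.3%) and 5378 fell (39.4%), and 3720 passed neither way. Changes under 2-fold made up 43.2% of the calls. Changes of large size were mostly falls. At 4-fold or more (log2 2) 388 genes rose (2.84%) and 2174 fell (15.9%), and at 16-fold or more (log2 4) 63 rose (0.462%) and 506 fell (3.71%). The 4 CTX values lay wholly above the 4 normal ones in 4180 genes (30.6%) and wholly below in 4756 (34.8%). Libraries of normal muscle varied more among themselves. The median SD of log2 CPM over 5634 expressed genes was 0.205 in normal and 0.126 in CTX muscle. It was larger in normal muscle for 73.7% of these genes. CTX libraries 1 and 2 were the closest pair, and among WT libraries only normal libraries 5 and 6 held Xist. The part of either in these SDs was not tested.

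**Figure D2:**
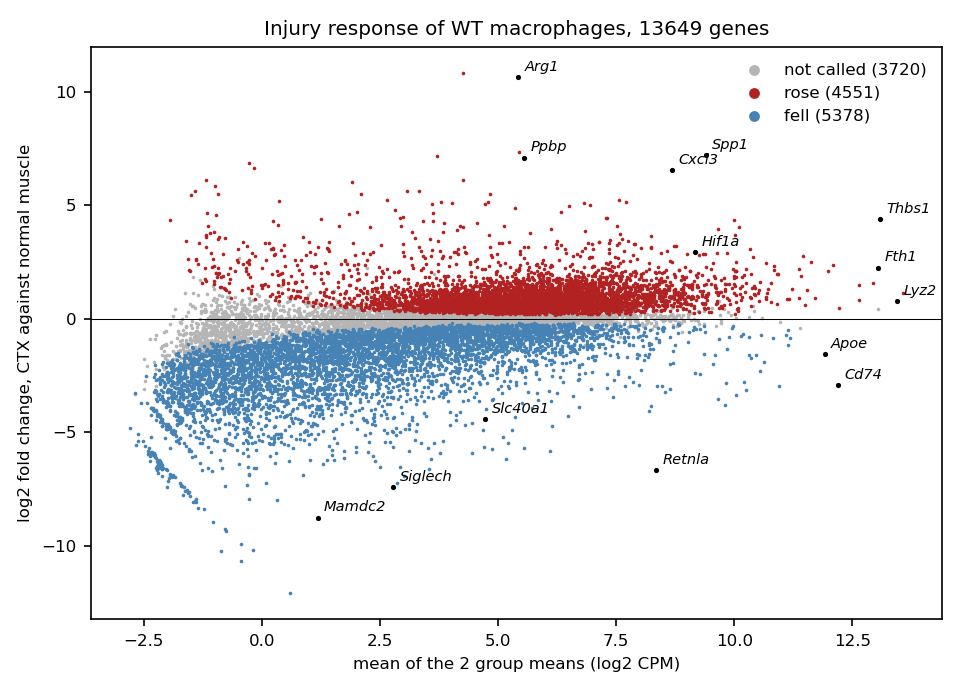
Log2 fold change in WT injury (y axis) against the mean of the 2 group means in log2 CPM (x axis), with 1 point per gene, red for the 4551 that rose, blue for the 5378 that fell and grey for 3720 not called. Arg1 and Spp1 lie at the top, Mamdc2 and Siglech near the bottom at low mean level, and Retnla combines a high level with a log2 fall of 6.66.

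Levels were also divided by the merged length of all annotated exons of a gene. That length can exceed the length of the main transcript, so the ranks depend on the measure. Per kilobase of merged exons, the 10 highest genes of the injured state included those for lysozyme, ferritin and secreted matrix proteins. Lyz2, the macrophage lysozyme, was at 11315 CPM per kb in CTX, the highest there by this measure, and 6596 in normal muscle. These values may include reads of its near-copy Lyz1. Ferritin light chain Ftl1 (8024 CPM per kb), the secreted glycoprotein gene Thbs1 (7228), Spp1 (6029) and the lipopolysaccharide co-receptor gene Cd14 (5866) were also among the 10 highest in CTX muscle. In normal muscle Cd74, the invariant chain of MHC class II, was highest at 7766 CPM per kb, with the secreted protein genes Retnla (5890.1) and Apoe (3152) also among its 10 highest. Thbs1 encodes thrombospondin-1, a matrix glycoprotein that platelets and macrophages secrete. Its level was 1107, 4337, 1472 and 1385 CPM in normal libraries 2, 3, 5 and 6 and 50047, 52574, 38252 and 34714 CPM in CTX libraries 1 to 4. The groups were far apart, with normal library 3 the highest of its group, and the log2 change was 4.40 (SE 0.52, edgeR adjusted p = 1.63e-06), or 5.04 without that library.

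Among called genes whose groups did not overlap, with a mean log2 CPM of at least 5 in the higher group and without predicted genes, the 12 largest rises were in Saa3, Arg1, Pdpn, Spp1, Ptges, Ppbp, Cxcl3, Timp1, Sel1l3, Dmkn, Cxcl5 and Inhba. Arg1 encodes arginase, which turns arginine into ornithine. It was at 1.41, 0.602, 1.09 and 1.14 CPM in the normal and 1286, 1587, 2403 and 1601 CPM in the CTX libraries, a log2 change of 10.65 (SE 0.48, edgeR adjusted p = 2.15e-10). No normal library came near any CTX library. Spp1, which encodes the secreted phosphoprotein osteopontin, read 48.7, 172, 22.8 and 23.4 CPM in normal and 8624, 9345, 9757 and 12014 CPM in CTX muscle. Normal library 3 lay above the other normal libraries here, and without it the log2 change was 8.28 in place of 7.22. Pdpn, the podoplanin gene, read 1.80, 7.91, 2.30 and 2.61 CPM in normal and 595, 632, 629 and 559 CPM in CTX muscle. Without normal library 3 the log2 changes of Pdpn, Cxcl5, Cxcl3 and Dmkn were 8.07, 7.06, 7.92 and 6.45, in place of 7.37, 5.52, 6.55 and 5.63. Inhba, which encodes the subunit of activin A, rose from 4.46 ± 2.53 to 202 ± 53.9 CPM. Timp1, an inhibitor of metalloproteinases, went from 2.55 ± 1.48 to 174 ± 39.7 CPM. Saa3 was far higher in WT CTX library 3 than in the others, and its log2 change was 8.07 without that library in place of 10.84. The same library moved Ptges from 7.2 to 6.31.

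Under the same limits the 12 largest falls were in Mamdc2, Siglech, Enpep, Cmah, Retnla, Pla2g2d, Chp2, C1qtnf1, P3h2, Fcna, Cd209d and Sult1a1. Cmah encodes the hydroxylase that converts the sialic acid Neu5Ac to Neu5Gc. It was at 74.7, 96.7, 121 and 86.5 CPM in normal and 1.08, 0.279, 0.266 and 1.43 CPM in CTX libraries, a log2 change of -6.92 (SE 0.40, edgeR adjusted p = 1.17e-09). Pla2g2d, a secreted phospholipase, fell from 161 ± 55.5 to 1.59 ± 1.62 CPM. The lectin genes Fcna and Cd209d belong to resident macrophages of several tissues. Fcna fell from 329 to 4.48 CPM and Cd209d from 129 to 1.74 CPM. Enpep, the aminopeptidase that cuts angiotensin, fell from 91.4 to 0.593 CPM. Siglech is best known from plasmacytoid dendritic cells and also marks some resident macrophages, and its level was 141, 60.5, 134 and 98.4 CPM against 0.736, 0.279, 0 and 1.43 CPM. At such low CTX counts a single library moved the size, so that Siglech and Cd209d changed by -8.24 and -6.83 without CTX library 4 in place of -7.41 and -6.17, and Mamdc2 by -9.57 without CTX library 1 in place of -8.76.

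**Figure D3:**
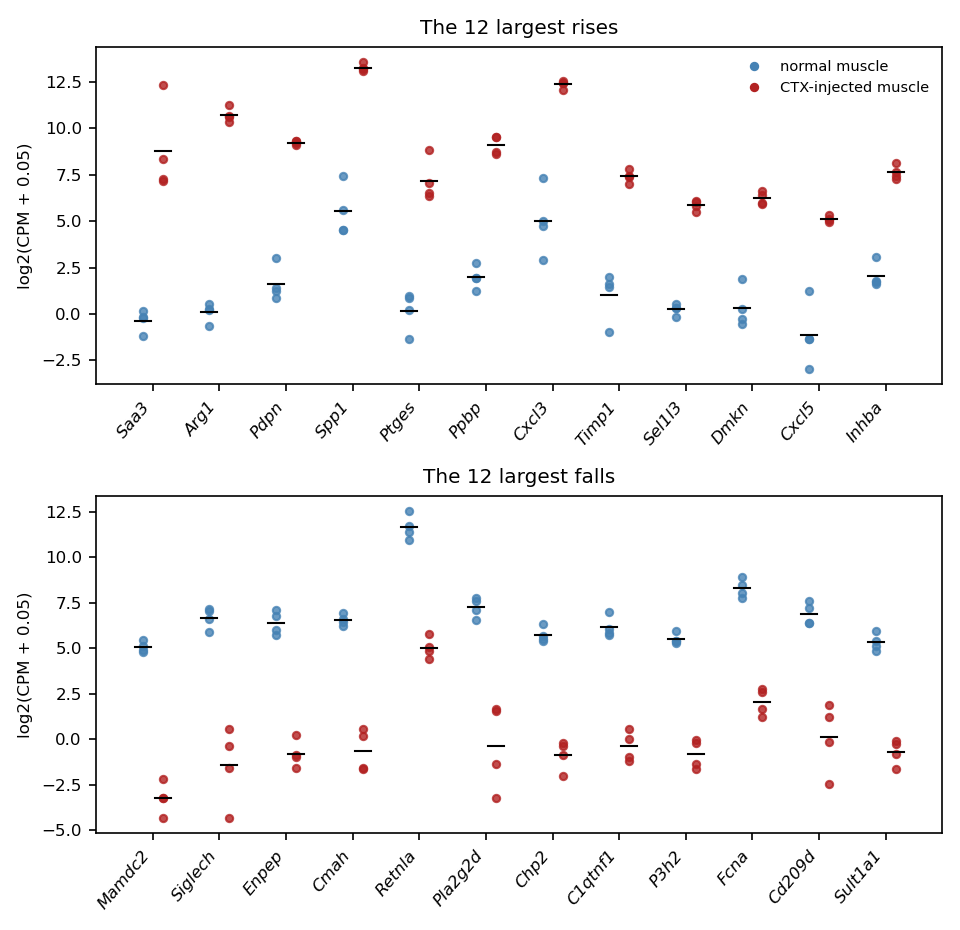
Log2 of CPM plus 0.05 in each of the 4 normal (blue) and 4 CTX-injected (red) WT libraries for the 12 largest rises (top) and 12 largest falls (bottom), with black bars at group means. The 24 genes were chosen to have groups that do not overlap. Saa3 and Ptges have 1 CTX library above the rest, and Cd209d and Pla2g2d spread widely among CTX libraries at low counts.

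A switch between near absence and clear expression was seen only downward at the limits used. No gene was at or under 1 CPM in all normal and at or above 10 CPM in all CTX libraries (0.0%), and 18 genes (0.132%) met the reverse. They were Aff3, Agmo, C6, Chp2, Coro2b, Cxcl9, Epor, Gbp2b, Gbp8, Gm4951, Hepacam2, Mamdc2, P3h2, Slc14a1, Stab2, Sult1a1, Tln2 and Tmod1. The interferon-gamma-induced genes Cxcl9, Gbp2b and Gbp8 were among them. Gbp2b had no read in any CTX library and 31.2, 11.4, 31.2 and 29.3 CPM in the normal libraries, which makes it at least 147-fold lower against a floor of 3 counts per library. Agmo, which cleaves ether lipids, fell from 18.6 to 0.336 CPM. Stab2, a hyaluronan scavenger receptor also made by sinusoidal endothelium, fell from 22.8 to 0.294 CPM. Without CTX library 4 its log2 change was -6.96 in place of -6.21, and without CTX library 1 those of C6, Cxcl9 and Hepacam2 were -6.78, -6.27 and -7.75 in place of -6.13, -5.61 and -6.90. With limits of 2 and 10 CPM, 8 genes were switched on and 54 off, and with limits of 0.5 and 20 CPM 1 gene was switched off.

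Several chemokine genes whose products attract neutrophils and monocytes rose. Of 25 chemokine ligand genes tested 13 rose and 5 fell, against 33.3% and 39.4% of all genes, and their median log2 change was 1.29, beside -0.15 over all genes. The neutrophil attractants Cxcl1, Cxcl2, Cxcl3, Cxcl5 and Ppbp rose. Cxcl3 was at 7.34, 163, 26.6 and 32.2 CPM in normal and 5494, 6018, 5637 and 4354 CPM in CTX libraries, and the lowest CTX value was over the highest normal one, that of library 3. Cxcl2 read 474, 1851, 1071 and 1199.8 CPM in normal and 7823, 8731, 10104 and 4796 CPM in CTX libraries, a log2 change of 2.77 (SE 0.42, edgeR adjusted p = 2.32e-05). Ppbp and Pf4 are also platelet genes. The platelet markers, which include both, summed to 310 to 548 CPM before and 1560 to 2400 CPM after injury. Pf4 (405 and 1510 CPM) and Ppbp (4.17 and 574 CPM) made up most of that sum. Of 5 platelet markers tested these 2 rose and 3 fell. The falls were in the integrin gene Itga2b (22.0 to 1.07 CPM), Gp1ba (0.63 to 0.114 CPM) and Gp9 (0.381 to 0.0841 CPM). The monocyte attractant Ccl2 rose from 496 ± 204 to 1620.3 ± 442 CPM, and Ccl7 and Ccl9 rose by log2 changes of 1.54 and 2.16. Cxcl12, the ligand that retains stem and immune cells in tissue, fell from 54.7 to 7.42 CPM. Ccl17, a ligand of the T cell chemokine receptor Ccr4, fell by 2.22 on the log2 scale. Ccl24 and Ccl8 did not pass, with log2 values of -0.39 and 0.02. Cxcl10, an interferon-induced attractant of T cells, did not pass with all libraries (log2 -0.19), but CTX library 3 was high for it, and without that library the value was -1.87 and passed.

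Cxcl1, Cxcl2 and Cxcl3 lie within the same stretch of chromosome 5, and the 250 bases before each start share a motif, so these promoters are shown. The motif, GGGA and any base followed directly by TTTCC, is a form of the site bound by NF-kB. It was searched on both strands in windows from 250 bases before to 50 bases after each start. The share was 0.411% of 32851 mouse promoters, 0.462% of those of the genes tested, 0.426% of those of genes that rose, and 0.408% of those of genes that fell. Among the chemokine ligand genes tested, only these 3 held it. Sequences are from RefSeq on GRCm38.p6, printed 5′ to 3′ in the direction of the gene, with the motif in capitals. It begins 71, 97 and 73 bases before the start of Cxcl1, Cxcl2 and Cxcl3. A match is a description of the letters, not of binding.
Cxcl1 (chr5:90890995-90891244, plus strand): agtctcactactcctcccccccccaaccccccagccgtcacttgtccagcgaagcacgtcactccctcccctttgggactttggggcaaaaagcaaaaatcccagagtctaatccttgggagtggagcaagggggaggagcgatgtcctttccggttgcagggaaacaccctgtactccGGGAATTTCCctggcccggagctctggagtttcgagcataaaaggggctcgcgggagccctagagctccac
Cxcl2 (chr5:90903649-90903898, plus strand): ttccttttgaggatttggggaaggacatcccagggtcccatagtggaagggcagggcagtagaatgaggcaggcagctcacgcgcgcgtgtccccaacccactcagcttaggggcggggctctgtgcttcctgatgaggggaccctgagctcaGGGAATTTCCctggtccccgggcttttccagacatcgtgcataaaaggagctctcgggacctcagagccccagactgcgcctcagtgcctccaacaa
Cxcl3 (chr5:90785851-90786100, plus strand): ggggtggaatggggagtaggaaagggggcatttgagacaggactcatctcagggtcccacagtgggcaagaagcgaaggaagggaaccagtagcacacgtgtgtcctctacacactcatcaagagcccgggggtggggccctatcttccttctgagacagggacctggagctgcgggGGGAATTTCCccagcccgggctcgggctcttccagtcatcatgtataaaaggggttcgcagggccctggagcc

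Receptors for chemoattractants moved in both directions. Of 18 tested 9 rose and 4 fell (median log2 change 0.31), beside 33.3% and 39.4% of all genes. With library totals only 7 rose and 7 fell (median -0.30). The formyl peptide receptor genes Fpr1 and Fpr2, which sense bacterial and mitochondrial peptides, rose from 4.91 to 83.9 CPM and from 6.94 to 46.1 CPM. Fpr2 was highest in CTX library 3, without which its log2 change was 2.0 in place of 2.73. The leukotriene B4 receptor gene Ltb4r1 (log2 1.85), the platelet-activating factor receptor gene Ptafr (1.38) and the chemokine receptor gene Ccr1 (1.76) rose with them. The monocyte receptors split. Ccr2, the receptor for Ccl2 on inflammatory monocytes, read 595, 532, 399 and 493 CPM in normal and 579.9, 570.4, 525 and 466 CPM in CTX libraries, overlapping groups that did not pass (log2 0.08, edgeR adjusted p = 0.627), though with library totals only the value was -0.54 and passed. Cx3cr1, the fractalkine receptor of patrolling monocytes and many resident macrophages, read 243, 146, 143 and 135 CPM and then 15.8, 12.8, 11.2 and 11.5 CPM, with no overlap and a log2 change of -3.70. Ccr7, which guides cells to lymph nodes, fell from 120.3 to 43.3 CPM.

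Integrin genes moved in both directions, 10 up and 8 down of 18 (median log2 1.01), beside 33.3% and 39.4% of all genes. With library totals only 9 rose and 8 fell (median 0.40). Both chains of the complement receptor CR3 rose, Itgam from 667 ± 79.1 to 2642 ± 382 CPM and Itgb2 by a log2 change of 1.94. The fibronectin receptor gene Itga5 (2.27) and the osteopontin and vitronectin receptor genes Itgav (2.01) and Itgb5 (1.78) also rose. The lymphocyte-type chain Itgal, which also pairs with Itgb2, fell by 0.74, and Itga4 and Itga9, which bind VCAM-1 and matrix, fell by 1.11 and 1.33 on the log2 scale.

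Of 23 pattern recognition genes 13 rose and 4 fell (median log2 change 0.60), beside 33.3% and 39.4% of all genes. With library totals only 10 rose and 8 fell (median -0.02). Clec4e encodes Mincle, which binds a nuclear protein of dead cells and mycobacterial glycolipid. It read 78.7, 510.3, 183 and 235 CPM in normal and 4863, 4949, 6283 and 4303 CPM in CTX libraries, a log2 change of 4.34 (SE 0.57, edgeR adjusted p = 5.09e-06). Its neighbour and partner Clec4d stood at 5.74, 43.0, 12.3 and 12.7 CPM and 615, 666, 563 and 498 CPM. In both genes normal library 3 was highest of its group and still under every CTX library, and without it the log2 changes were 4.94 and 5.83 in place of 4.34 and 4.99. Cd14 rose from 1981 ± 749.7 to 10159 ± 1568 CPM, and Nlrp3, the inflammasome sensor, by a log2 change of 1.80. Among Toll-like receptors Tlr2 and its partner Tlr6 rose by 0.79 and 1.71, while the RNA sensors Tlr3 and Tlr8 fell by 2.35 and 0.89 on the log2 scale. Clec10a, a galactose-type lectin of alternatively activated cells, fell from 248 to 25.6 CPM.

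Genes for engulfing dead cells moved both ways. Of 19 tested 7 rose and 10 fell, beside 33.3% and 39.4% of all genes, with a median log2 change of -0.81. With library totals only 6 rose and 10 fell (median -1.42). Tgm2, a transglutaminase that aids uptake through integrins, rose from 344 ± 101 to 2550.4 ± 301 CPM. The lipid-binding receptor gene Trem2 (log2 2.03) and the calreticulin receptor gene Lrp1 (1.54) rose too. Several receptors of phosphatidylserine and proteins that bridge to it were among the falls. Axl read 384, 246, 363 and 288 CPM in normal and 28.7, 22.4, 24.2 and 45.1 CPM in CTX libraries, and its ligand Gas6 fell from 624 to 91.3 CPM. Mertk, a receptor kinase related to Axl, and the bridging protein gene Mfge8 fell by 1.24 and 1.43 on the log2 scale. Cd36, a scavenger receptor gene that also takes up dead cells, did not pass (log2 0.47, and 0.64, passing, without CTX library 3), and Cd300lf, a phosphatidylserine receptor gene of the inhibitory receptor list, rose by 1.71. Timd4, the TIM4 receptor of resident macrophages, read 372, 143, 261 and 164 CPM and then 9.18, 0.725, 1.73 and 6.76 CPM, so that all CTX libraries were below the lowest normal one. The C1q chain gene C1qa, an opsonin of dead cells, fell from 1136 to 392 CPM.

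Single scavenger and Fc receptor genes changed by several-fold in each direction. Msr1, scavenger receptor A, rose from 143 to 1314 CPM and Olr1, a receptor for oxidized LDL, from 39.8 to 344 CPM, while Marco fell from 151 to 6.38 CPM and the hemoglobin-haptoglobin receptor gene Cd163 from 822 to 205 CPM. Of 14 scavenger receptor genes 4 rose and 6 fell (median log2 -0.20), shares near the 33.3% and 39.4% of all genes. Of 7 Fc receptor genes 3 rose and 2 fell (median 0.14), and 2 rose and 4 fell with library totals only (median -0.48). Fcgr1, the high-affinity IgG receptor gene, rose from 48.4 ± 6.13 to 310.3 ± 44.1 CPM, and Fcgrt, which recycles IgG, fell from 461 to 72.2 CPM.

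Complement was among the lists with the most falls, 12 of 16 against 2 rises (median log2 -1.75). Of all genes 39.4% fell and 33.3% rose. The classical-pathway genes C4b and C2 fell from 599 to 54.2 CPM and from 30.0 to 0.908 CPM, the latter by a log2 change of -5.03, or -5.73 without CTX library 4. Vsig4, a complement receptor of resident macrophages, went from 14.3 to 0.952 CPM. The exceptions included C3, the component on which all routes converge, which rose from 371 ± 99.3 to 690.0 ± 178 CPM. With library totals only 0 genes of this list rose and 13 fell (median -2.36), so the rise of C3 depended on TMM.

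Both ferritin genes rose and the ferroportin gene fell. Macrophages that digest muscle free iron from heme, keep it in ferritin and release it through ferroportin. Ferritin heavy chain Fth1 read 3244, 5077, 3962 and 3428 CPM in normal and 16786, 17758, 21448 and 18858 CPM in CTX libraries, a log2 change of 2.25 (SE 0.21, edgeR adjusted p = 1.11e-07). Ftl1 rose by 1.5. Slc40a1, which encodes ferroportin, read 105, 162, 156 and 82.1 CPM in normal and 7.82, 5.96, 4.39 and 5.28 CPM in CTX libraries, a log2 change of -4.42 (SE 0.26, edgeR adjusted p = 1.23e-09). In both genes the groups were separate. The metal importer gene Slc39a14 rose from 47.9 to 499 CPM. Ncoa4, which carries ferritin to lysosomes for breakdown, fell by 1.2 on the log2 scale. Hmox1, the heme oxygenase, was at 1156 ± 404 and 1707 ± 421 CPM and did not pass (log2 0.56, edgeR adjusted p = 0.0845), though it passed without CTX library 3 (0.73) or without normal library 3 (0.81). Tfrc, the transferrin receptor gene, did not pass either (log2 -0.31), and passed at -0.46 without normal library 2. Of all 21 heme and iron genes 9 rose and 5 fell (median 0.36), beside 33.3% and 39.4% of all genes. With library totals only 6 rose and 9 fell (median -0.33).

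Of 14 arginine and polyamine genes 11 rose and 2 fell (median log2 change 1.27), beside 33.3% and 39.4% of all genes. With library totals only 10 rose and 3 fell (median 0.66). Beside Arg1, the mitochondrial arginase gene Arg2 rose from 8.28 to 243 CPM and Nos2, which makes nitric oxide from the same substrate, from 1.81 ± 0.559 to 47.5 ± 82.9 CPM. Nos2 rested on CTX library 3, with 2.04, 1.0, 172 and 15.3 CPM in the CTX libraries, overlapping groups, and a log2 change of 1.76 that did not pass without that library in place of 4.71. The arginine importer gene Slc7a2 rose by 5.07, and by 3.68 without WT CTX library 3. Odc1, the first enzyme from ornithine to polyamines, read 61.5, 104, 83.8 and 105 CPM in normal and 1573, 1491, 663 and 753 CPM in CTX libraries. CTX libraries 1 and 2 were at about the same level, as were 3 and 4, and all were above the normal libraries (log2 3.66, SE 0.34, edgeR adjusted p = 1.2e-07). The spermidine synthase gene Srm rose by 1.32, and Sat1, which starts polyamine breakdown, fell by 0.51 on the log2 scale.

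Of 27 nutrient importers 18 rose and 5 fell (median 1.07), beside 33.3% and 39.4% of all genes. With library totals only 14 rose and 8 fell (median 0.46). Slc7a8, an exchanger of neutral amino acids, rose from 145 ± 32.6 to 1349 ± 109 CPM. Its relative Slc7a5 (log2 1.74) and their shared heavy chain gene Slc3a2 (1.41) rose as well. Among glucose and lactate carriers Slc2a1 rose from 77.5 to 390.5 CPM and Slc16a3 from 182 to 811 CPM, and Slc2a3, a second glucose carrier gene, fell from 48.1 to 14.8 CPM. Slc1a3, a glutamate importer gene, fell from 6.88 to 0.334 CPM, by a log2 change of -4.30, or -5.24 without CTX library 4. The nucleoside enzymes Upp1, which splits uridine, and Uck2, which phosphorylates it, rose from 1.80 to 40.2 CPM and from 16.3 to 147 CPM. The pentose phosphate genes Pgd, Taldo1 and Tkt rose by 1.55, 1.30 and 0.67. Of all 25 genes of that list 16 rose and 3 fell (median 0.48), but with library totals only 5 rose and 7 fell (median -0.14). Fatty acid oxidation genes were near the background with 8 rises and 5 falls of 21 (median 0.10), or 1 rise and 12 falls with library totals only (median -0.52). The coactivator gene Ppargc1b fell from 12.7 to 1.30 CPM.

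The HIF-1 transcription factor gene Hif1a was itself higher. It read 150.1, 299, 205 and 196 CPM in normal and 1610.0, 1574, 1848 and 1425 CPM in CTX libraries, groups that did not overlap, with a log2 change of 2.93 (SE 0.24, edgeR adjusted p = 2.85e-08). Mxi1, an antagonist of MYC proteins, rose from 84.1 to 499 CPM, and Epas1, which encodes the related HIF-2 alpha, fell from 8.56 to 4.73 CPM. The letters ACGTGC, a core of the hypoxia response element, were found on either strand in 5.91% of all promoters and in 7.74% of those of the genes tested. The share was 9.24% among genes that rose and 6.64% among those that fell. The promoters of Slc2a1 and Slc16a3 are shown as carriers that rose and hold these letters, with the match in capitals. Slc16a3 holds it 27 and 14 bases and Slc2a1 36 bases before the start.
Slc2a1 (chr4:119108495-119108744, plus strand): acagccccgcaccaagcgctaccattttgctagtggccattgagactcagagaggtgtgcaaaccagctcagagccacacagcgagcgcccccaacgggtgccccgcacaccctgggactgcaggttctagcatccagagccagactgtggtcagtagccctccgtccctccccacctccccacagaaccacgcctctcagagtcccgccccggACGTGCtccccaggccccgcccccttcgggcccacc
Slc16a3 (chr11:120948817-120949066, plus strand): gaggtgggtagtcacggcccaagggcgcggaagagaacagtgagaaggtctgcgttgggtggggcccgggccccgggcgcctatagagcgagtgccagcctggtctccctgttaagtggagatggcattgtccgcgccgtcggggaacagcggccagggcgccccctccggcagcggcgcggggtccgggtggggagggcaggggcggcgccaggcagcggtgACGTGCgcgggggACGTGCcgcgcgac

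Of 24 antioxidant genes 16 rose and 1 fell (median 1.34), beside 33.3% and 39.4% of all genes. With library totals only 13 rose and 5 fell (median 0.73). Slc7a11 imports cystine in exchange for glutamate and feeds glutathione synthesis. It read 12.3, 88.2, 26.1 and 34.6 CPM in normal and 1672, 1634, 1360.5 and 968 CPM in CTX libraries, with normal library 3 highest of its group and CTX library 4 lowest of its own. The log2 change was 5.13 (SE 0.57, edgeR adjusted p = 8.46e-07), and 5.85 without normal library 3. Gclm, a subunit of the enzyme that limits glutathione synthesis, rose by 2.03, and Nqo1, a quinone reductase gene, by 2.38. The thioredoxin reductase gene Txnrd1 rose from 348 ± 224 to 1908 ± 172 CPM, and Sod2, the manganese superoxide dismutase gene, from 106 to 920.0 CPM. Cat, which encodes catalase, was the member that fell, from 119 to 64.3 CPM. Nfe2l2, the NRF2 gene, did not pass (log2 0.53, edgeR adjusted p = 0.058), though it passed at 0.68 without normal library 3.

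The antioxidant response element core TGACNNNGC was present in 33.3% of 27 promoters of this list, against 12.4% of all promoters and 14.6% of those of the genes tested. The list for protein folding in the ER held it in 27.8% of 18 promoters. It was found in 15.5% of promoters of genes that rose and 14.4% of those that fell. The core can contain the AP-1 site TGANTCA. Its matches in Gclm and Txnrd1 begin 134 and 92 bases before the start, on the opposite strand. The promoter of Slc7a11 is shown for another element, the amino acid response site TGATGNAAN, which 3.95% of all promoters, 2.40% of those of the genes tested and 2.22% of those of genes that rose held. It has 2 copies, facing each other, that begin 66 and 48 bases before the start. Capitals mark these matches.
Gclm (chr3:122245307-122245556, plus strand): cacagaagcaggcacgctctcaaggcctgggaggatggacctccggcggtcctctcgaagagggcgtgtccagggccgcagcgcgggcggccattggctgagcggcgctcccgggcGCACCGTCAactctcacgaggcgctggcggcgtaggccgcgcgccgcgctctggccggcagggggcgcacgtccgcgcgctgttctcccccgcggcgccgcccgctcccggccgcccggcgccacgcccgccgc
Txnrd1 (chr10:82858956-82859205, plus strand): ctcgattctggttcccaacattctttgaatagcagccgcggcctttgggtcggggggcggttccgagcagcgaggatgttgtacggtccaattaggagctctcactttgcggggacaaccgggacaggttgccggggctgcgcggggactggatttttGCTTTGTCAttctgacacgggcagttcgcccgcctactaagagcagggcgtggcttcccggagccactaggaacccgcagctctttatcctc
Slc7a11 (chr3:50443614-50443863, minus strand): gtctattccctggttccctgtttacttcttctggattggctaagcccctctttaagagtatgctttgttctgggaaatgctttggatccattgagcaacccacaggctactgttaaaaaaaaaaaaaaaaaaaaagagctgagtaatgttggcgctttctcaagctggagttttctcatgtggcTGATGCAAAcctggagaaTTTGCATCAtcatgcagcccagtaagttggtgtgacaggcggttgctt

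Of 26 cytokine genes tested 14 rose and 7 fell (median 0.82), beside 33.3% and 39.4% of all genes. With library totals only 11 rose and 9 fell (median 0.19). Il1rn, the natural antagonist of interleukin-1, read 62.7, 339, 241 and 253 CPM in normal and 3247, 3313, 4391 and 2849.9 CPM in CTX libraries. Il10, an anti-inflammatory cytokine, read 35.0, 106, 42.3 and 43.7 CPM in normal and 517, 528, 949 and 289.9 CPM in CTX libraries. Its CTX values ran from the lowest in library 4 to the highest in library 3, around a log2 change of 3.33 (SE 0.45, edgeR adjusted p = 6.85e-06). Tnf rose from 216 ± 62.1 to 681 ± 296 CPM. Il6 read 26.7, 36.1, 20.1 and 37.9 CPM in normal and 12.6, 12.6, 91.4 and 16.4 CPM in CTX libraries and did not pass (log2 0.13), and without CTX library 3 it passed with the opposite sign, at -1.12. Csf3, which drives neutrophil production, rose from 6.04 to 212 CPM, with 99.2, 105, 549 and 96.0 CPM in the CTX libraries and a log2 change of 4.06 without library 3 in place of 5.14. Tnfsf13b, the B cell survival factor BAFF, fell from 10.7 to 0.651 CPM, and Il16 from 116 to 15.3 CPM.

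Receptors for these cytokines also moved both ways, 15 up and 11 down of 30 (median 0.43), beside 33.3% and 39.4% of all genes. With library totals only 11 rose and 14 fell (median -0.19). The TNF receptor 2 gene Tnfrsf1b rose from 708 ± 169.8 to 3912 ± 663 CPM, and the shared GM-CSF receptor chain gene Csf2rb by a log2 change of 1.92. The interleukin-1 decoy receptor gene Il1r2 and the accessory chain gene Il1rap rose by 1.59 and 2.17. Csf1r, the receptor for the macrophage growth factor CSF1, fell from 3149 ± 409 to 1740.3 ± 115 CPM. Tgfbr2 fell from 451 to 135 CPM.

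Inhibitors that NF-kB induces against itself rose in 10 of 20 cases and fell in 4 (median 0.58), beside 33.3% and 39.4% of all genes. With library totals only 8 rose and 7 fell (median -0.03). Nfkbia, which encodes I-kappa-B alpha, rose from 856 to 2648 CPM, Tnip1 by 2.74 and Irak3, an inactive kinase that damps Toll-like receptor signals, by 2.23. The mRNA-destabilizing gene Zfp36 and the phosphatase gene Dusp1 fell by 1.17 and 1.59 on the log2 scale. Dusp1 belongs to the dissociation genes that were higher in normal muscle.

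Genes of eicosanoid synthesis and breakdown moved both ways, 8 up and 10 down of 21 (median -0.37), beside 33.3% and 39.4% of all genes. With library totals only 7 rose and 11 fell (median -0.99). Ptgs2, the inducible cyclooxygenase, read 198, 393, 213 and 353 CPM in normal and 4367, 4733, 7629 and 2376 CPM in CTX libraries, a log2 change of 4.04 (SE 0.36, edgeR adjusted p = 9.25e-08). Ptges, the next enzyme on the route to prostaglandin E2, was at 1.76, 1.93, 0.351 and 1.10 CPM and 81.1, 92.0, 451 and 131 CPM, with CTX library 3 above the others. Hpgd, which inactivates prostaglandins, read 211, 188, 204 and 127 CPM in normal and 4.81, 1.62, 1.20 and 4.34 CPM in CTX libraries, a log2 change of -5.92 (SE 0.36, edgeR adjusted p = 2.23e-09). None of these 3 genes had overlapping groups. Ptgs1, the constitutive cyclooxygenase gene, fell from 76.2 to 6.98 CPM. The leukotriene enzymes Alox5 and Ltc4s fell from 177 to 18.5 CPM and from 45.9 to 6.60 CPM, while Alox5ap, the activating protein gene of Alox5, rose by 1.02. Alox15, a lipoxygenase gene of resident peritoneal macrophages and eosinophils, fell by 2.27 on the log2 scale, and the eosinophil markers, whose part was not tested, summed to 170 to 1040 CPM in normal muscle against 45 to 88.8 CPM after injury.

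Matrix genes moved both ways, with adhesive proteins among the rises. Of 22 matrix proteins and cross-linkers 12 rose and 6 fell (median 0.73), beside 33.3% and 39.4% of all genes. With library totals only 8 rose and 10 fell (median 0.12). Of 29 proteases and inhibitors 16 rose and 9 fell (median 1.07), or 13 and 10 with library totals only (median 0.46). Vcan, the proteoglycan versican, rose from 24.2 ± 18.6 to 791 ± 169 CPM, with a log2 change of 5.03, or 5.68 without normal library 3. Fn1, fibronectin, rose from 1981 to 8447 CPM. The membrane metalloproteinase gene Mmp14 rose from 53.2 to 721 CPM and the surface protease gene Adam8 from 299 to 2246 CPM, whereas Mmp9, the gelatinase, fell from 481 ± 113 to 192 ± 39.3 CPM. The inhibitors divided, with Timp1 up and Timp2 down from 827 to 217 CPM. The lysosomal protease gene Ctsl rose by 3.70 on the log2 scale. The elastic fibre gene Fbln5 fell by 2.39, and the fibroblast collagen gene Col1a1 fell from 115 to 16.7 CPM. Fibroblast markers (8 of 11, median log2 -1.30) and mural cell markers (8 of 8, median -1.49) fell at the same time, and their part was not tested.

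Of 26 growth factor genes 12 rose and 10 fell (median -0.33), beside 33.3% and 39.4% of all genes. With library totals only 9 rose and 14 fell (median -0.94). Ereg and Areg, ligands of the EGF receptor, rose from 1.46 to 40.6 CPM and from 25.6 to 81.4 CPM, the latter with overlapping groups. Gdf3, a TGF-beta family member described in muscle macrophages, rose from 2.68 to 26.1 CPM. Vegfa, the main vessel growth factor gene, rose by a log2 change of 1.90. Igf1, a muscle growth factor gene, fell from 159 ± 31.5 to 16.8 ± 7.99 CPM, and Bmp2 from 108 to 6.84 CPM. The platelet-derived growth factor gene Pdgfb fell by 2.71 on the log2 scale.

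Genes of the lipid-associated macrophage state rose in 14 of 20 cases and fell in 2 (median 1.65), beside 33.3% and 39.4% of all genes. Gpnmb, a lysosomal glycoprotein gene, rose from 38.4 ± 33.5 to 831 ± 144 CPM, with a log2 change of 4.44, or 5.25 without normal library 3. Fabp5, a fatty acid binding protein gene, rose from 30.0 to 444 CPM, and the galectin genes Lgals1 and Lgals3 by 2.56 and 2.50. Apoe, the lipoprotein gene of the same state, fell from 6738 ± 1817 to 2279.7 ± 271 CPM, and the cholesterol exporter gene Abcg1 fell by 1.13 on the log2 scale.

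Genes for protein folding in the endoplasmic reticulum (ER) rose nearly throughout. Of 22 genes 20 rose and 1 fell (median 1.22), beside 33.3% and 39.4% of all genes. Creld2, a secreted ER protein gene, read 30.5, 33.0, 28.9 and 30.0 CPM in normal and 137, 159.6, 163 and 182 CPM in CTX libraries, a log2 change of 2.39 (SE 0.12, edgeR adjusted p = 4.19e-10). Pdia6, a disulfide isomerase gene, read 244, 279, 277 and 226 CPM and then 1015, 1031, 1191 and 1223 CPM, again in narrow and separate groups. Hspa5, the chaperone BiP, rose by 0.93 and Hsp90b1, the chaperone GRP94, by 1.12. Herpud1, part of the ER degradation machinery, was the member that fell (log2 -0.42, with overlapping groups, and -0.34, -0.36, -0.39 or -0.36, none passing, without CTX library 3 or 4 or normal library 5 or 6). Ddit3, which encodes the stress factor CHOP, was at 33.1 and 29.2 CPM and did not pass.

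The ER stress response element, CCAAT and CCACG with 9 bases between them, was rare among all promoters, at 0.119%, and among those of the genes tested, at 0.136%. It was present in 7 of the 18 promoters on record for this list (38.9%), those of Hspa5, Calr, Hsp90b1, Canx, Pdia6, Dnajc3 and Creld2. Among genes that rose the share was 0.202%, and among those that fell 0.097%. The element is a known property of ER chaperone promoters, and the members were listed by function, so the share describes the list. In the promoters shown it begins 98 bases before the start in Pdia6, 126 in Creld2, and 212 and 107 in Hsp90b1, and capitals mark it on either strand.
Pdia6 (chr12:17266339-17266588, plus strand): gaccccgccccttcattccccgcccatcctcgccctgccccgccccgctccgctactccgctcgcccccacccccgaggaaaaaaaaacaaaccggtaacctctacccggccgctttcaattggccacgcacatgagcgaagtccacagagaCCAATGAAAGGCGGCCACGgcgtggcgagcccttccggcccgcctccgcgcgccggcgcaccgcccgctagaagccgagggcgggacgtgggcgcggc
Creld2 (chr15:88819396-88819645, plus strand): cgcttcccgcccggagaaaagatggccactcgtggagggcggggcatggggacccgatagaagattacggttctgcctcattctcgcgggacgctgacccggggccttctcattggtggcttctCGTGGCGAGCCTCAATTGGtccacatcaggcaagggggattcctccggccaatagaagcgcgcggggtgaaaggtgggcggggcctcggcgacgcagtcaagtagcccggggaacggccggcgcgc
Hsp90b1 (chr10:86705445-86705694, minus strand): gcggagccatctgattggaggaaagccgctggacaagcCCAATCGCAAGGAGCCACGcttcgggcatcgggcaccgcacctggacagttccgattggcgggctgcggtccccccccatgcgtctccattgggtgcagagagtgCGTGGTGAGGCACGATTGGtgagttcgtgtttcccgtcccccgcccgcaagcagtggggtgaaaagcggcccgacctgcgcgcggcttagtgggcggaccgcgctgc

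Proteasome genes rose in 34 of 36 cases, and the exceptions belong to the immunoproteasome. The median log2 change was 1.43, and of all genes 33.3% rose and 39.4% fell. The constitutive catalytic subunit gene Psmb5 read 22.7, 21.6, 21.6 and 17.3 CPM in normal and 85.3, 93.7, 87.0 and 92.1 CPM in CTX libraries, a log2 change of 2.1 (SE 0.11, edgeR adjusted p = 6.56e-10). Psmb6, another catalytic subunit gene, rose by 2.17. Psmb9, the interferon-induced subunit that takes the place of Psmb6, read 68.0, 49.7, 56.9 and 63.6 CPM in normal and 20.5, 20.5, 38.4 and 37.0 CPM in CTX libraries and fell. Psmb8, which takes the place of Psmb5, read 197, 169, 184 and 176 CPM and 156, 159.8, 226 and 216 CPM, overlapping groups that did not pass (edgeR adjusted p = 0.739), though with library totals only the log2 value was -0.56 and passed. For both genes CTX libraries 3 and 4 were above libraries 1 and 2. The third immunoproteasome subunit gene, Psmb10, rose by 0.72. With library totals only every log2 change moved by about -0.62, so the size of this rise depended on TMM.

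Genes of other housekeeping machinery rose by less, and how many did depended on the scaling. Over all genes 33.3% rose and 39.4% fell. Of 33 translation factors 29 rose and 2 fell (median 0.87), or 17 and 5 with library totals only (median 0.25), with Eif4e, the cap-binding protein gene, up by 1.85. Its inhibitor gene Eif4ebp1 rose by 1.81, and Eef2k, the kinase that stops elongation, fell from 50.6 to 10.9 CPM. Of 42 mitochondrial ribosome genes 34 rose and 0 fell in the edgeR test (median 0.69), but with library totals only 5 rose and 8 fell (median 0.07). Of 31 genes of the vacuolar proton pump and autophagy 22 rose and 2 fell (median 1.0), or 17 and 8 with library totals only, among them the autophagy receptor gene Sqstm1 from 1457 to 5448 CPM. Tfeb, a regulator of lysosome genes, fell by 0.59 on the log2 scale while its relative Mitf rose by 1.06. The actin and phagocytic list had 27 rises and 1 fall in 35 genes (median 0.88), or 18 and 8 with library totals only (median 0.26), led by Capg (2.01) and Vim (1.99). Splicing factors (19 up, 6 down of 42, median 0.21) and chromatin regulators (13 up, 11 down of 39, median -0.01) lay nearer the background, and with library totals only they had 6 rises and 25 falls (median -0.40) and 1 rise and 25 falls (median -0.62).

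**Figure D4:**
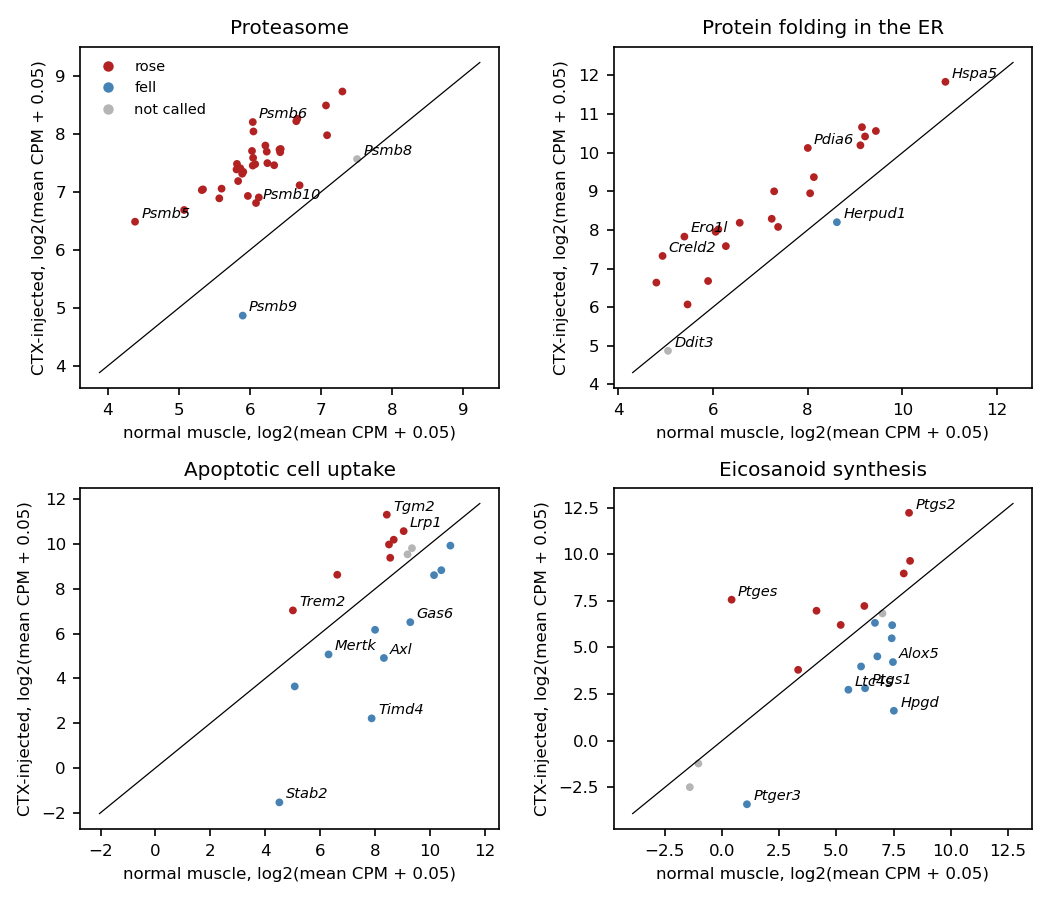
Each member of 4 gene lists at its mean level in normal (x axis) and CTX-injected (y axis) WT muscle, both as log2 of mean CPM plus 0.05, coloured red where it rose, blue where it fell and grey where not called. Points above the line are higher after injury, which holds for the proteasome genes other than Psmb9, with Psmb8 near the line, while the uptake and eicosanoid lists fall on both sides.

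**Figure D5:**
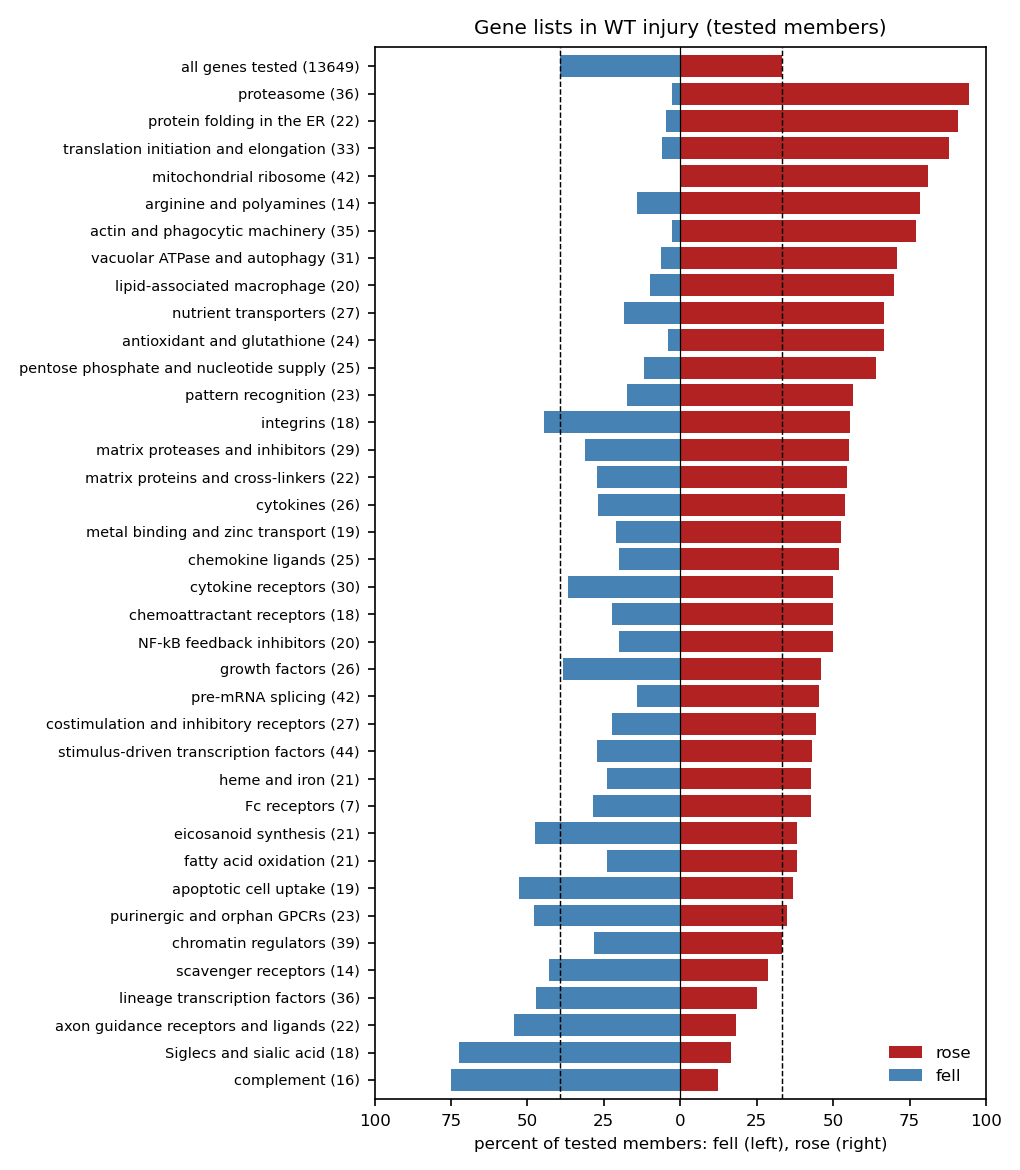
Percent of the tested members of each list that rose (red, right) or fell (blue, left) in WT injury, with the number tested in brackets, and dashed lines at the shares over all 13649 genes (33.3% rose, 39.4% fell). The proteasome and ER folding lists stand at the rising end, with complement and Siglec genes at the falling end.

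Of 36 transcription factors of the macrophage lineage 9 rose and 17 fell (median -0.31), shares near the 33.3% and 39.4% of all genes, and with library totals only 2 rose and 25 fell (median -0.92). Spi1, which encodes PU.1, rose by 0.64 and Cebpb, a factor of inflammatory and repair genes, from 1923 ± 243 to 4661 ± 117 CPM. The dendritic cell factors Irf4, Batf3 and Zbtb46 fell, Irf4 from 103 to 8.70 CPM. Klf2 and Egr1 fell from 946 to 120.2 CPM and from 1159.8 to 125 CPM, and Egr1 is one of the 15 dissociation genes. Cebpa and Pparg did not pass, with log2 values of -0.08 and -0.31. Of 44 stimulus-driven factors 19 rose and 12 fell (median 0.38), but with library totals only 8 rose and 21 fell (median -0.23). Beside Hif1a, the NF-kB subunit gene Nfkb1 rose by 0.97 and Bhlhe40 by 1.86. The interferon response factor gene Irf1 fell by 0.97 on the log2 scale.

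Of 18 Siglec and sialic acid genes 3 rose and 13 fell (median -1.40), including the receptor genes Siglec1 and Siglecf, at -1.29 and -1.99. Siglecf also marks eosinophils. Of 23 purinergic and orphan receptors 8 rose and 11 fell (median -0.47), beside 33.3% and 39.4% of all genes. With library totals only 6 of them rose and 13 fell (median -1.07). Gpr34, a lysophosphatidylserine receptor gene, read 95.4, 97.0, 112 and 66.5 CPM in normal and 2.61, 1.62, 1.73 and 2.75 CPM in CTX libraries, a log2 change of -5.41 (SE 0.25, edgeR adjusted p = 2.15e-10). The ADP receptors P2ry12 and P2ry13 fell from 74.1 to 10.4 CPM and from 72.4 to 5.98 CPM. Nt5e, which encodes CD73 and makes adenosine from AMP, read 4.02, 6.19, 1.17 and 1.10 CPM in normal and 64.0, 79.8, 44.9 and 59.6 CPM in CTX libraries. The adenosine receptors Adora2a and Adora2b rose by 2.30 and 2.79, and the ATP and UTP receptor gene P2ry2 by 2.67.

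Semaphorin and ephrin genes fell in 12 of 22 cases and rose in 4 (median -0.86), beside 39.4% and 33.3% of all genes. Sema6a and Sema6d fell from 23.4 to 1.17 CPM and from 49.9 to 2.57 CPM, and Sema3c, a secreted member, rose from 1.04 to 39.7 CPM. Costimulatory and inhibitory receptors were divided, 12 up and 6 down of 27 (median 0.29), beside 33.3% and 39.4% of all genes. With library totals only 6 rose and 11 fell (median -0.31). Trem1, an amplifier of inflammation, rose from 52.1 ± 23.9 to 574 ± 109 CPM. Cd274, which encodes the inhibitory ligand PD-L1, rose from 95.3 to 367 CPM. Lilra5 fell from 26.0 to 0.738 CPM. Of the metal-binding and zinc transport list 10 of 19 rose and 4 fell (median 0.37), or 7 and 6 with library totals only (median -0.25). S100a4, S100a6, S100a10 and S100a11 rose by 1.92, 1.89, 1.63 and 2.09.

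The GLUD1 KO macrophages gave a response of much the same reach, from their own CTX and normal libraries. These were fitted together with the WT libraries and shared the estimate of each gene's spread, so the 2 sets of calls are not independent. In KO 4549 genes rose (33.3%) and 5491 fell (40.2%) in the edgeR test. Genes that rose in both genotypes numbered 4216, which is 92.6% of those rising in WT and 92.7% of those rising in KO. Falls shared by both numbered 4895, 91.0% of the WT and 89.1% of the KO falls, and 2 genes were called in opposite directions. Arg1 changed by 10.65 in WT and 10.59 in KO, Thbs1 by 4.40 and 4.23, and Fth1 by 2.25 and 2.27 on the log2 scale. Slc40a1 changed by -4.42 in WT and -3.23 in KO, and Retnla by -6.66 and -5.10. The difference between the WT and KO responses was called in 0 genes by edgeR (0.0%), with 646 at an unadjusted p under 0.05 and a smallest adjusted p of 0.0818. DESeq2 called 48 genes and limma voom with quality weights 11.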

How the data were processed

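RNA of sorted macrophages was counted per gene in 16 libraries, and the deposited values are raw counts made by the authors. Per the submitters' processing notes reads were handled with HISAT2 2.1.0, cutadapt 1.18, FastQC 0.11.7 and the featureCounts program of Subread 1.6.2, with mm10 as the build, and the annotation and the strand setting are not given in the sources used here. Libraries held 19352958 to 23097420 counts in WT muscle, which leaves counting error small beside the spread between libraries for all but low genes. SMART-Seq V4 does not mark strand, so reads of a gene and an antisense partner cannot be told apart.

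Genes passing filterByExpr (13649) were fitted with edgeR 4.0.16 (quasi-likelihood test, TMM scaling) in R 4.3.3, with 1 coefficient per genotype and treatment over all 16 libraries, and p-values were adjusted by Benjamini-Hochberg over all genes tested (threshold 0.05). CPM were taken per TMM-scaled library. The script was tested on simulated data. Alternatives were DESeq2 1.42.0 (also its size factors), voom of limma 3.58.1 with quality weights, library totals, other filters, WT libraries only, libraries under 10 CPM of Xist only, the replicate number as a block, and each WT library left out in turn. Levels per kilobase used the merged exons of GENCODE gene models. Promoters are RefSeq's on GRCm38.p6, matched by symbol for 10383 of 13649 genes, with 10 motifs searched.

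The comparison and all gene lists were chosen with earlier results of these data known. Genes were named by rule: the 12 largest rises and falls without overlap at a mean log2 CPM of at least 5 in the higher group (predicted genes left out), genes marked in each list, the 3 rises and falls of smallest p per list, the 10 highest per kilobase, and the 5 of widest spread per group. Of 247 genes named, 32 fall outside it and were chosen after their values were seen, among them the genes that were switched off, Clec4d, Fpr1, Fpr2, Csf3, Hp, Irg1, Psmb10, Slc39a14, Uck2 and Epas1.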

Additional observations from a re-analysis of the deposited data

Results flagged for a closer look

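Levels of the genes named above were searched in 494 groups of 4 libraries for a single library lying far from the other 3, measured by its gap to the nearest of them against the range of the group. Chance marks about 1 in 20 groups where genes are picked without regard to their spread. Some genes here were named for wide spread or after their values were seen, so that rate does not hold for this set. The genes are also not independent. In each entry the level of that library is followed by the range of the other 3. None of these differences between libraries was given a cause, and their part in the results was not tested.

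WT CTX library 3 stood above the other 3 for Arg2 (324 CPM, others 207 to 224), Ccl2 (2280 CPM, others 1320 to 1470), Ccl7 (2530 CPM, others 1350 to 1440), Cd274 (485 CPM, others 317 to 338), Csf3 (549 CPM, others 96.0 to 105) and Cxcl10 (323 CPM, others 22.1 to 45.7). Further genes with a high level in it were Fpr2 (101 CPM, others 22.4 to 33.3), Hp (715 CPM, others 178 to 233), Il6 (91.4 CPM, others 12.6 to 16.4), Irak3 (307 CPM, others 144 to 160), Irg1 (3650 CPM, others 559 to 975) and Lcn2 (513 CPM, others 23.4 to 59.2). Also high were Mmp14 (1150 CPM, others 543 to 598), Mmp9 (251 CPM, others 170 to 176), Nos2 (171 CPM, others 1.0 to 15.3), P2ry2 (171 CPM, others 101 to 109), Ptges (451 CPM, others 81.1 to 131) and Saa3 (5080 CPM, others 141 to 330). The rest were Slc7a2 (255 CPM, others 26.9 to 46.4), Sod2 (1470 CPM, others 720 to 749) and Upp1 (77.7 CPM, others 27.2 to 28.2). Low levels in it were seen for Il7r (182 CPM, others 252 to 261), Ppargc1b (0.664 CPM, others 1.45 to 1.59) and Srm (38.8 CPM, others 50.5 to 52.9).

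WT normal library 3 stood above the other 3 for Cxcl3 (163 CPM, others 7.34 to 32.2), Cxcl5 (2.32 CPM, others 0.0781 to 0.351), Gclm (54.3 CPM, others 25.0 to 27.3), Gpnmb (88.3 CPM, others 18.8 to 26.6), Il10 (106 CPM, others 35.0 to 43.7) and Inhba (8.25 CPM, others 3.0 to 3.4). Further genes with a high level in it were Mxi1 (137 CPM, others 63.1 to 72.1), Pdpn (7.91 CPM, others 1.8 to 2.61), Pparg (49.8 CPM, others 20.5 to 24.4), Thbs1 (4340 CPM, others 1110 to 1470) and Tnfrsf1b (959 CPM, others 585 to 648). Low levels in it were seen for Dusp1 (1600 CPM, others 2400 to 2500) and Gbp2b (11.4 CPM, others 29.3 to 31.2).

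WT normal library 5 stood above the other 3 for Ccl24 (287 CPM, others 169 to 183), Clec10a (363 CPM, others 203 to 213), Fcgrt (680 CPM, others 368 to 403), Ltc4s (73 CPM, others 36.0 to 38.0) and P3h2 (60.7 CPM, others 39.5 to 42.5). Low levels in it were seen for Ccr7 (85 CPM, others 131 to 133). WT CTX library 1 stood above the other 3 for Sema6a (2.1 CPM, others 0.836 to 0.879) and Slc14a1 (0.793 CPM, others 0.495 to 0.532). WT CTX library 2 stood above the other 3 for Ngp (58.4 CPM, others 0.736 to 10.4) and S100a11 (484 CPM, others 408 to 412). Low levels in it were seen for Ccr7 (26.6 CPM, others 48.0 to 49.7). WT CTX library 4 stood above the other 3 for Cat (74 CPM, others 60.2 to 62.1). WT normal library 2 stood above the other 3 for Cx3cr1 (243 CPM, others 135 to 146). Low levels in it were seen for Tgm2 (194 CPM, others 382 to 404). WT normal library 6 stood above the other 3 for Ddit3 (43.2 CPM, others 29.1 to 30.3). Malat1, a nuclear RNA read here as a sign of RNA composition, was at 748 CPM in WT CTX library 4, against 941 to 968 CPM in the other CTX libraries, and it was at 1380 to 6960 CPM in the normal libraries.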

How the results depend on the processing

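The WT counts of 4551 rises and 5378 falls lay at 4125 to 4708 rises and 4763 to 5561 falls with DESeq2, its size factors, voom, the WT libraries alone, the libraries without Xist alone and the replicate block. Without 1 WT library they were 4344 to 4459 rises and 5137 to 5407 falls. With library totals only there were 1944 rises and 8349 falls in WT and 1920 and 8398 in KO, since every log2 change moved by about -0.62, and 311 WT genes were then called in the opposite direction. Log2 values under that scaling were -0.13 for Adgre1, -0.54 for Ccr2 and -0.56 for Psmb8. Il6 ran from -1.12 to 0.41 as libraries were left out, and the lowest value was that without WT CTX library 3, which held 91.4 CPM against 12.6 to 16.4 in the others. The difference of WT and KO responses was called in 0 genes by edgeR, 1 over the libraries without Xist, 48 with DESeq2 and 11 with voom, and the cause was not tested. Limits of 2 and 10 CPM gave 8 genes switched on and 54 off, and limits of 0.5 and 20 CPM gave 1 off. With the replicate number as a block 4280 genes rose and 4763 fell. Only numbers 2 and 3 occur in both WT groups, and their deviations from the group means correlated at 0.014 and 0.068. Unlike-numbered pairs ran from -0.142 to 0.143. With so few shared numbers these values cannot show whether the numbers pair the libraries. Of the 247 genes named, 241 kept their call and direction under the block and 6 no longer passed. Xist was read in WT normal libraries 5 and 6 and in no WT CTX library, and the sex of the mice, time after injection, strain and separate mice were not given. An average over sorted cells does not separate cell numbers from RNA per cell. Genes under about 1 CPM in CTX libraries rest on few reads, so their folds are imprecise.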
